A study of Oryza sativa Indica Group with 226 samples.

Results

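Transcripts that lay near the array background in 1 parent of a rice cross and well above it in the other are described here, with their behaviour in the progeny. A probe set, the group of short oligonucleotides that reports 1 transcript on the array, was taken when its mean was under 4.6 in Minghui 63 and at least 7 in Zhenshan 97 on the deposited log2 scale (3 arrays each). The rule was met by 87 of 57194 probe sets left after control features were removed. The members were thus chosen by their parental values, which are given as a description with no test. The arrays of the progeny took no part in the choice.

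The study profiled shoots of 110 recombinant inbred lines from the indica rice varieties Minghui 63 and Zhenshan 97 (2 arrays per line, labelled as biological replicates), of Minghui 63 itself (3 arrays) and of Zhenshan 97 itself (3 arrays), 226 Affymetrix Rice Genome arrays in all. All plants were untreated. Seeds were soaked for 48 h, and shoots were taken 72 h after germination from seedlings kept in the dark at 25 °C. The pregermination temperature was 35 °C and the humidity 85%. The p-values below set differences between lines against the spread between the labelled biological replicates of a line.

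A recombinant inbred line comes from a cross by repeated selfing, so that at nearly every locus it carries the allele of 1 parent or of the other in a fixed state. When a sequence difference near a gene alters its own transcript level, the lines fall into groups by the allele inherited there, and neighbouring genes tend to be inherited together. A short-oligonucleotide array reads a transcript through its match to the probes, so less transcript in Minghui 63 and a poorer match of the Minghui 63 transcript to the probes cannot be told apart from these values.

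Array medians ran from 4.77 to 5.07, and the precision of each value is limited by the number of arrays. Markers of shoots or dark-grown leaves were not all high. The lowest, a probe set of rbcS, was at 2.84 in Minghui 63 and 2.92 in Zhenshan 97. The highest, a probe set of CAB2R, was at 11.95 in Minghui 63 and 13.04 in Zhenshan 97. PORA, the light-dependent protochlorophyllide reductase of dark-grown leaves, was at 11.23 in Minghui 63 and 12.11 in Zhenshan 97. Of the 12 shoot marker probe sets listed, 11 were lower in Minghui 63, with differences of -2.17 to 0.25 and a median of -1.09. The part of that shift in the values of the members was not tested. Of the 3 root markers, the silicon transporter gene Lsi2 was at 3.08 in Minghui 63 and 3.11 in Zhenshan 97, the iron transporter gene IRT1 at 3.94 in Minghui 63 and 4.34 in Zhenshan 97, and Lsi1, also a silicon transporter gene, at 7.55 in Minghui 63 and 8.21 in Zhenshan 97. Of the 4 seed probe sets, the glutelin gene GluA-1 was at 2.21 in Minghui 63 and 2.47 in Zhenshan 97, and the pair of GluA-2 at 4.34 and 5.97 in Minghui 63 and 4.15 and 6.46 in Zhenshan 97. The globulin gene Glb was high in both, at 10.36 in Minghui 63 and 10.55 in Zhenshan 97. Zhenshan 97 replicate 3 stood apart from its group: 124 probe sets lay at least 2 log2 units below both other arrays of that parent, against 0 to 28 for each of the other 5 parental arrays. Among the lines, 11 pairs shared the class (defined below) at 92.7% to 100% of all 301 probe sets with 2 classes, while no other pair passed 86.0%, so counts over lines are also given with 1 line of each such pair (99 lines).

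The platform annotation tied 50 of the 87 members to 1 gene each (57.5%, against 39.2% of all probe sets without controls), and these were 46 different genes. The other 37 had no gene in the annotation. Only 4 members had a usable gene name: EIL1, of the EIN3-like transcription factors of ethylene signalling; PDHE1-A, of the pyruvate dehydrogenase complex, which feeds pyruvate into the citric acid cycle; rab25; and a gene listed as peroxidase, an enzyme class that uses hydrogen peroxide. The rest is called here by its locus, where there is 1, and the plots of line means give the array's own name of each member.

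Means in Minghui 63 ran from 1.73 to 4.597 with a median of 3.81, and means in Zhenshan 97 from 7.003 to 12.74 with a median of 8.25. Minghui 63 minus Zhenshan 97 ran from -9.19 to -2.64, with a median of -4.59. In 80 of the 87 members every Minghui 63 array lay below every Zhenshan 97 array, which was so for 9.09% of all probe sets without controls. The rule used this contrast, so nothing is read from that share. The mean in Minghui 63 was within the range of 17 Tag control probe sets (2.48 to 4.61 over the same arrays) for 83 members. The others lay below that range, at 1.73 to 2.45. The limit of 4.6 is close to the top of the range, so nothing is read from this count. Values near background limit the difference that can be read, and the members were chosen by these same parental values. The true difference of a member may thus be larger or smaller than the difference printed, which was not tested. The members closest to the limit of Minghui 63 were LOC4347495 at 4.597, LOC4326594 at 4.590 and a member without a gene at 4.583. Just outside it lay LOC9267086 at 4.617 and probe sets without a gene at 4.607 and 4.633. The members closest to the limit of Zhenshan 97 were LOC4333995 at 7.003, LOC9270448 at 7.023 and LOC4341814 at 7.033. Just outside it lay LOC4333700 at 6.980, LOC4326015 at 6.977 and LOC4346728 at 6.963.

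**Figure D1:**
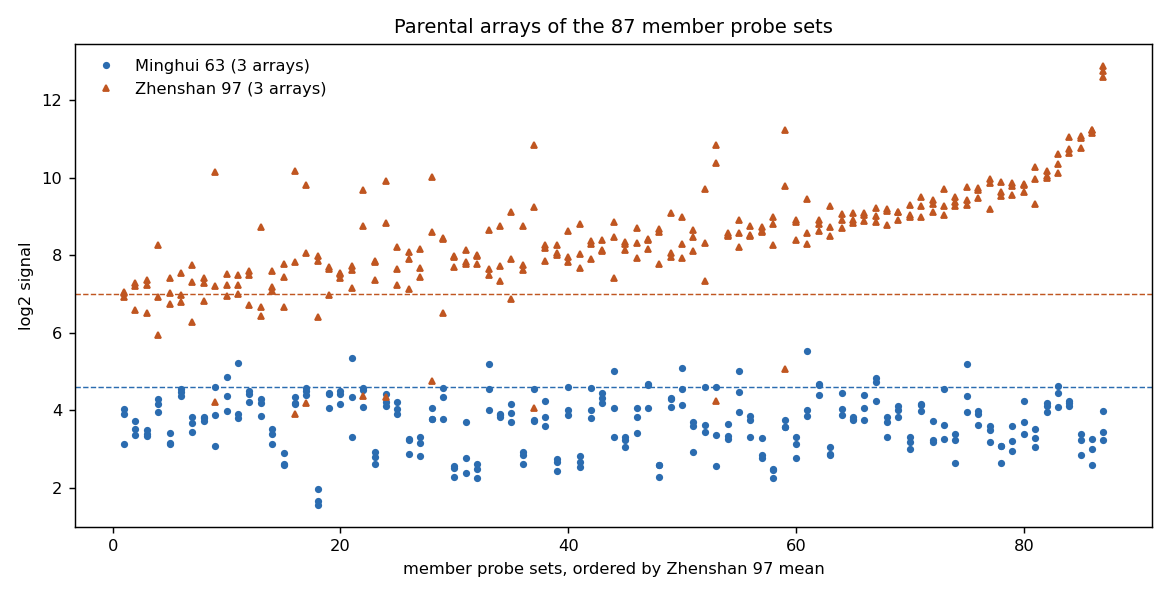
Deposited log2 signal (vertical axis) of each of the 87 members on the 3 Minghui 63 arrays (circles) and the 3 Zhenshan 97 arrays (triangles), with members ordered along the horizontal axis by their Zhenshan 97 mean. Dashed lines mark the limits of 4.6 and 7; in 80 members the groups do not overlap, and the triangles among the circles belong to members with 1 low Zhenshan 97 array.

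Most members differed between the lines, and most of those fell into 2 classes. A moderated F test over the 110 lines (limma, Benjamini-Hochberg adjustment over all 57194 probe sets) called 73 of the 87 members at an adjusted p under 0.05, 83.9%, against 4.64% of all probe sets. Over probe sets with a mean of at least 5 over all arrays it called 66 of 71 members (6.01% of all those tested), and over those with a mean of at least 7 it called 10 of 13 (5.08%). Repeatability, the mean square between lines minus that within, divided by their sum, was at least 0.5 for 66 of the 87 members and for 2.15% of all probe sets. A member was said to have 2 classes when the sorted line means held an empty gap of at least 1 log2 unit with at least 11 lines on each side. This was so for 54 of the 87 members (62.1%), against 0.526% of all probe sets (301 of 57194). Those 54 stood for 51 different genes or, without a gene, probe set name stems. All 54 were among the 73 called by the F test, 19 members were called without showing 2 classes, and 14 were not called. With the replicate number as a block, 5 of those 14 were called as well, which made 78 of 87, against 10.7% of all probe sets.

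These shares were also set beside the size of the parental difference. Of the 303 other probe sets with a parental difference, in either direction, of at least the smallest in the set, 159 (52.5%) had 2 classes. The mirror set, near background in Zhenshan 97 and high in Minghui 63, had 2 classes in 53 of 68 probe sets (77.9%). The differences between these shares and 62.1% were not tested. Within the set, 2 classes were found in 10 of the 10 members with a parental difference of at least 6 log2 units, and in 12 of the 29 with a difference under 4.

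Gaps ran from 1.01 to 5.23 with a median of 2.62, and 19 were at least 3. After each replicate number was centred on its own mean, both arrays of a line lay on the same side of the gap in 104 to 110 of the 110 lines, and in all 110 for 34 members. On the deposited values it was 98 to 110 lines, and all 110 for 29 members. Over the 54 members and 110 lines together, 39 of 5940 pairs of arrays (0.657%) fell on opposite sides after centring and 74 (1.25%) on the deposited values. The 39 came from 23 lines, of which RIL198 held 6 and RIL103 held 5. Repeatability of the 54 members ran from 0.66 to 0.98.

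The classes lay close to the parental levels. The median of the lines below the gap was within 0.5 log2 units of the Minghui 63 mean in 46 of the 54 members, and the median of the lines above it within 0.5 of the Zhenshan 97 mean in 40. In 10 members the lines above the gap had a median more than 0.5 below the Zhenshan 97 mean, and in 4 more than 0.5 above it. The strongest departure was in a member with no annotated gene, the second row from the bottom in the plot of the 54. It read 2.26, 2.49 and 2.47 in Minghui 63 and 8.27, 8.99 and 8.80 in Zhenshan 97. Its 56 lines below the gap reached up to 3.31, while the other lines had a median of 6.08 and spread widely above 4.39.

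**Figure D2:**
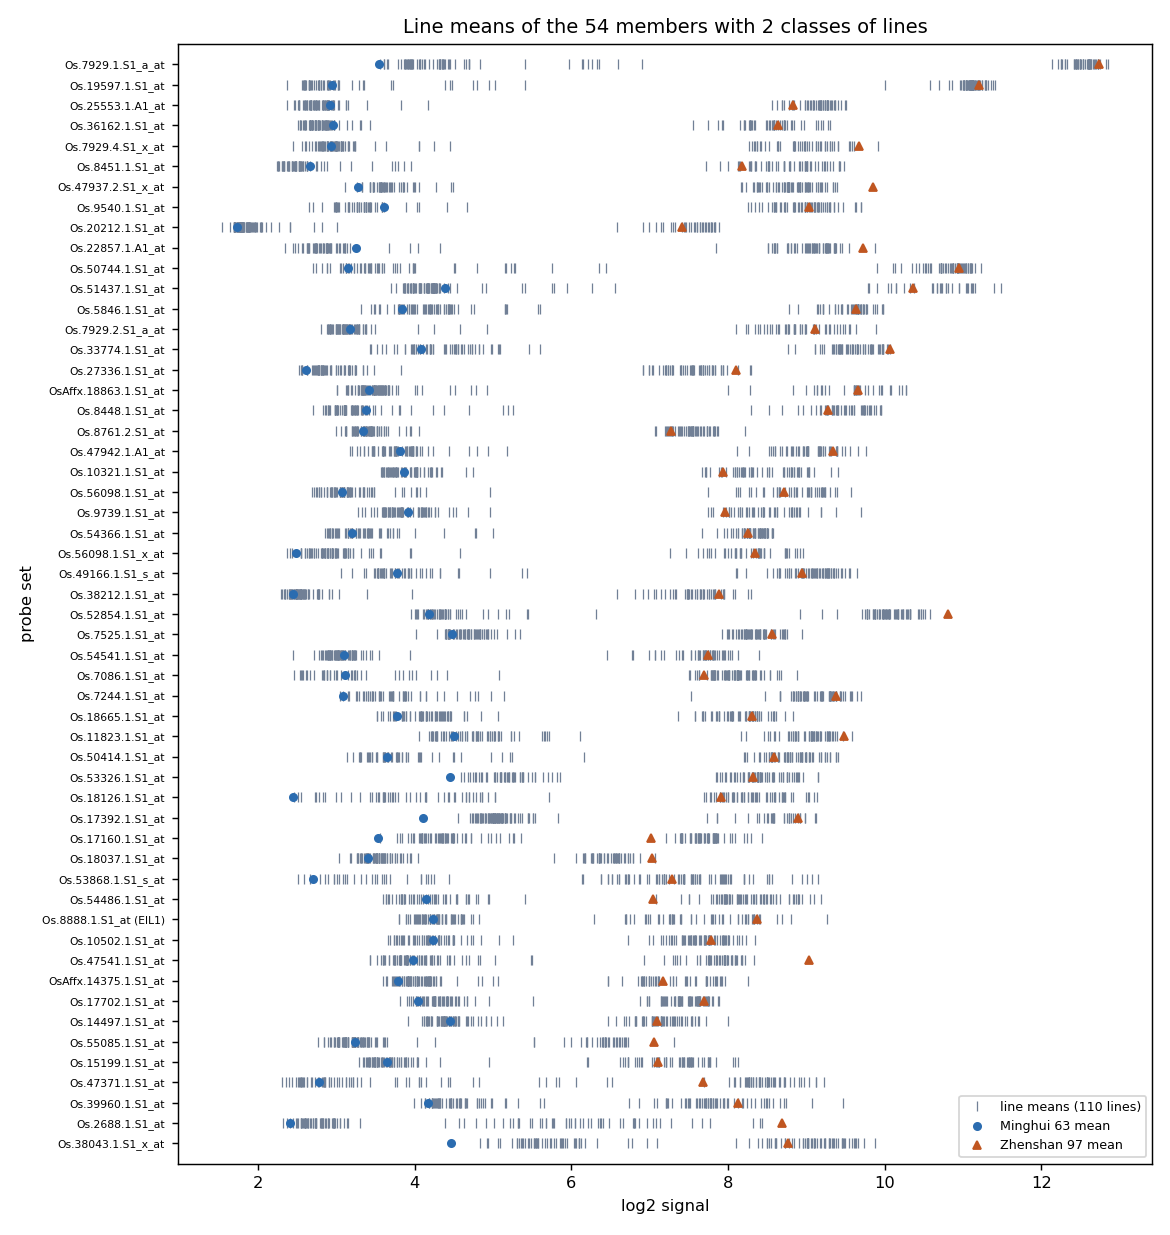
Line means (vertical ticks, 110 per row) of the 54 members with 2 classes on the log2 signal axis, with the Minghui 63 mean as a circle and the Zhenshan 97 mean as a triangle, ordered from the widest gap (5.23, top) to the narrowest (1.01, bottom). Ticks gather near the circle and near the triangle with an empty stretch between them, which is narrow and off centre in the second row from the bottom.

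The widest gap belonged to LOC4328727 on chromosome 2, a locus with no gene name in the tables used. Its brightest probe set read 3.44, 3.97 and 3.24 in Minghui 63 and 12.59, 12.76 and 12.88 in Zhenshan 97. Line means ran from 3.56 to 12.86 with a median of 6.06. No line mean lay between 6.91 and 12.14: 63 lines were below this gap and 47 above it. The lower class itself was spread over more than 3 log2 units, while the upper class was compact.

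The second widest was in a member with no annotated gene, which read 2.99, 3.26 and 2.58 in Minghui 63 and 11.24, 11.23 and 11.16 in Zhenshan 97. Its gap was 4.61, with 50 lines below it. The third, also without a gene, read 2.84, 3.04 and 2.86 in Minghui 63 and 8.72, 8.50 and 9.26 in Zhenshan 97. It had a gap of 4.39 with 61 lines below. In neither did any array of a parent come near the other parent. LOC4327515 on chromosome 1 came next. It read 2.85, 2.76 and 3.28 in Minghui 63 and 8.60, 8.61 and 8.72 in Zhenshan 97, and had the highest repeatability of the 87 members, 0.98. Its 64 lower lines ended at 3.43 and its 46 upper lines began at 7.55.

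The rest of the 10 widest gaps, of 3.52 to 3.82, belonged to a further probe set of LOC4328727, to LOC4351955 and to members without a gene. Of these the ninth by width was the lowest member of all in Minghui 63, at 1.67, 1.96 and 1.56, against 7.97, 7.86 and 6.41 in Zhenshan 97. It had 76 of 110 lines in the lower class. LOC4351955 on chromosome 12 read 3.04, 3.29 and 3.51 in Minghui 63 and 9.96, 10.28 and 9.33 in Zhenshan 97, with 45 lines below its gap.

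For most members the lines divided about evenly. The number of lines below the gap ran from 31 to 78 with a median of 56.5 of 110, and its exact (Clopper-Pearson) 95% interval held 50% for 43 of the 54 members. These intervals cover the sampling of lines only, and members inherited together are not independent. For 9 members the interval lay above 50%, and for 2 below. With 99 lines the interval lay above 50% for 5 and below for 2. The most lines below the gap were 78, for LOC4335622 on chromosome 4 and 2 members without a gene that never differed from it in class, 70.9% with an interval of 61.5% to 79.2%. The fewest were 31, for LOC4344073. Counted over the 51 genes or name stems, a line carried from 15 to 39 in the lower class, with a median of 27.

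Several probe sets of a gene were compared where the annotation gave them. Among the 46 genes, 9 had more than 1 probe set and 2 had more than 1 member. The 10 further probe sets of member genes were lower in Minghui 63 by more than 1 log2 unit in 6 cases, and 3 had 2 classes. In 5 of the 10 both parents were under 4.6, which limits the difference a probe set can show. Even so, 1 of these 5, of LOC4328727, had 2 classes with a gap of 1.325.

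LOC4328727 was the clearest case of agreement. Beside the probe set above, its next member read 3.07, 3.07 and 2.65 in Minghui 63 and 9.62, 9.52 and 9.89 in Zhenshan 97. The last of its members read 3.0, 3.19 and 3.32 in Minghui 63 and 8.99, 9.29 and 9.04 in Zhenshan 97. A dim probe set of the gene that is no member averaged 1.81 in Minghui 63 and 4.22 in Zhenshan 97. All 4 put each of the 110 lines in the same class. LOC4351955 agreed likewise: its other probe set averaged 3.49 in Minghui 63 and 6.82 in Zhenshan 97, and placed all 110 lines as the member did. Within each of these genes the probe sets share a name stem. Whether they share probes was not tested, so their agreement may not be independent.

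At LOC4324010 on chromosome 1 the probe sets ran in opposite directions. The member read 3.13, 3.40 and 3.51 in Minghui 63 and 7.59, 7.07 and 7.17 in Zhenshan 97. A second probe set read 8.47, 8.45 and 8.69 in Minghui 63 and 2.40, 2.49 and 3.04 in Zhenshan 97. Each had 2 classes, and they placed 0 of the 110 lines in the same class (Pearson's r = -0.99 over line means). The third averaged 7.17 in Minghui 63 and 6.86 in Zhenshan 97 and was not called between the lines. So 2 of the 3 probe sets of this gene were well above the limit of 4.6 in Minghui 63.

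LOC4327515 gave a further disagreement. Its second probe set read 8.78, 8.57 and 8.90 in Minghui 63 and 10.36, 10.56 and 10.48 in Zhenshan 97. Its line means ran from 9.45 to 10.76 and were not called (adjusted p = 1, limma), although the member on the same gene divided the lines into 64 and 46. Every line lay above all 3 Minghui 63 arrays on that second probe set.

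**Figure D3:**
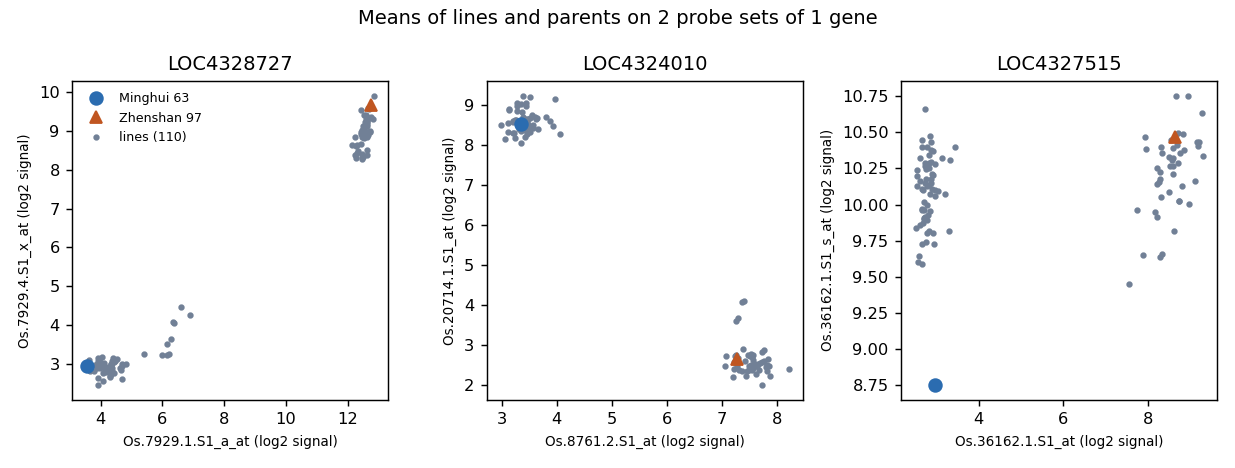
Means of the 110 lines (dots), of Minghui 63 (circle) and of Zhenshan 97 (triangle) on a member (horizontal axis) and on another probe set of the same gene (vertical axis), both in log2 signal. For LOC4328727 the lines lie in 2 groups that agree, for LOC4324010 in 2 groups with opposite direction, and for LOC4327515 the vertical axis does not separate the groups that the horizontal axis shows.

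Without a gene, probe sets that share a name stem were the only comparison. Several of these have names that differ only in the suffix. Whether such probe sets share probes was not tested, so their agreement may not be independent. For 1 stem both probe sets, with names of that kind, were members with 2 classes. Each had 67 lines below the gap, and they agreed in 110 of 110 lines. For another with 2 members the lines agreed in 110 as well, although 1 of the 2 missed the gap rule at 0.58. A further probe set of that stem, no member, had no 2 classes, with a widest gap of 0.035. By the sides of that gap it matched both members in 85.5% of the lines. Elsewhere only the sides of the widest gap could be compared, because no other probe set of the stem had 2 classes. For 4 stems another probe set lay on the side of the member in all 110 lines, and for 2 in 109. The widest gaps of these other probe sets were 0.125 to 0.975. Some of their members, with gaps of 0.995 and 0.675, had no 2 classes either. In the other 2 stems the member also had no 2 classes, and the sides matched in fewer lines. In 1 the member had a gap of 0.37. Its further probe sets, at 1.60 and 2.04 in Minghui 63 and 1.59 and 1.97 in Zhenshan 97, had gaps of 0.015. They were on the side of the member in 31.8% and 39.1% of the lines. In the other the gap was 0.155 in the member. It was 0.045 in the further probe set, at 3.87 in Minghui 63 and 4.27 in Zhenshan 97. Their sides matched in 70.0% of the lines, or in 19.1% by the middle between the parents. No disagreement of classes is read from these shares.

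The genes lay on 11 of the 12 chromosomes. Chromosome 3 held 8 of the 46, chromosome 1 held 7, and chromosome 10 none. As a share of the annotated genes on the array this was 0% to 0.416% per chromosome, the highest on chromosome 9 with 4 of 962. No member genes had 5 or fewer annotated genes between them, so the 46 genes hold no run of adjacent genes. The 37 members without a gene could not be placed, so runs that include them cannot be seen. Gene order here is that of a Japonica assembly, and coordinates are not printed because the array annotation names no build.

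Members close together went together over the lines. Pairs of members with 2 classes on the same chromosome, from different genes, were in the same class in 99.1% of the lines for the 1 pair with at most 50 genes between. The 5 pairs with over 50 and up to 200 genes between agreed in 87.3% to 100% (median 88.2%), and the 3 pairs with over 200 and up to 500 in 66.4% to 93.6% (median 89.1%). The 5 pairs with over 500 and up to 1000 agreed in 58.2% to 82.7%, and the 16 pairs farther apart in 43.6% to 67.3%. Pairs on different chromosomes (295) had a median of 49.1%. These shares are a description: the pairs share lines and genes.

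**Figure D4:**
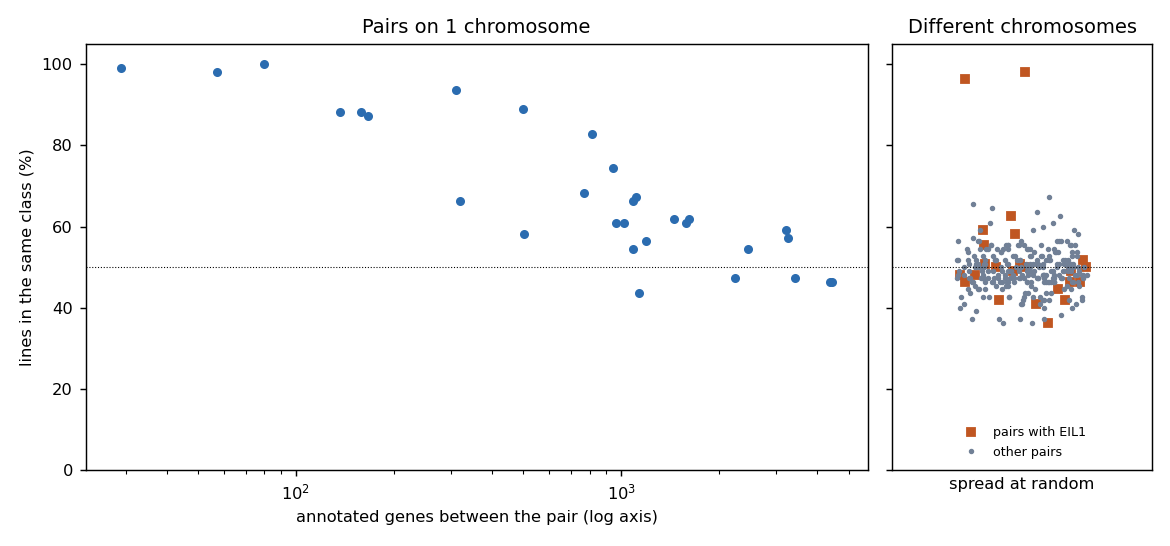
Share of the 110 lines in the same class (vertical axis, percent) for pairs of members with 2 classes, against the number of annotated genes between them (left, log axis) and for pairs on different chromosomes (right, spread sideways at random). Agreement is 87.3% or more for the pairs with up to 200 genes between, 66.4% to 93.6% for the next 3 and around 50% (dotted line) for many of the distant ones; the 2 squares near the top right are EIL1 with LOC4325244 and with LOC4324010.

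The class of a member was also set against other transcripts of known place. For each member with 2 classes, the 5 other probe sets with 2 classes and the highest absolute correlation over the 110 line means were found among 139 with a chromosome. For 25 of the 28 members with a gene, most of the 5 lay on the annotated chromosome. The best absolute correlation had a median of 0.94 over the 54 members.

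The exceptions are EIL1, LOC4344073 and LOC4341814. EIL1 (LOC4332697, also listed as EIL1B) is annotated on chromosome 3, where the next gene, LOC107276358, bears the same name with the synonyms EIL1A and MHZ6. Its probe set read 4.09, 4.32 and 4.28 in Minghui 63 and 7.95, 8.06 and 9.09 in Zhenshan 97. Line means ran from 3.80 to 9.26, with 57 lines below a gap of 1.48 (adjusted p = 1.22e-23, limma). All 5 of its most correlated probe sets were on chromosome 1 and none on chromosome 3. It shared the class of LOC4325244 in 108 of 110 lines (r = 0.92 over line means) and that of LOC4324010 in 106. The widest gap, found anew each time, was 0.42 in replicate 1 arrays alone and 0.79 in replicate 2 arrays alone. Its 2 classes thus show at the limit of 1 only in the mean of both. Whether the probe set also reads a copy on chromosome 1 was not tested.

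The other 2 exceptions had no close partner. LOC4344073, annotated on chromosome 7, correlated best at r = -0.47, with 4 of its 5 on chromosome 11. LOC4341814, annotated on chromosome 6, correlated best at r = -0.32, with 3 of its 5 on chromosome 4. Correlations this weak place neither.

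Of the 26 members with 2 classes and no gene, 13 had all 5 on 1 chromosome and 23 at least 3. With 1 probe set per stem, chromosomes 4, 8 and 9 were each led to by 4 of these. The other 3 still had a close partner, LOC4348327 on chromosome 10 (r = -0.97), LOC4349464 on chromosome 10 (r = 0.95) or LOC4337027 on chromosome 4 (r = -0.94). A member led to chromosome 9 by all 5 went against TAC1, a gene known for control of tiller angle in rice (r = -0.80). LOC4329150, annotated on chromosome 2 and no member, was the best match of LOC4345381 on chromosome 8 (r = 0.87) and of 2 members without a gene, all 3 of which had 4 of their 5 on chromosome 8.

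When members in the same class in at least 95% of the lines were joined, counting 1 probe set per gene or stem, 27 of the 51 fell into 11 groups and 24 stood alone. The largest group was on chromosome 9, where LOC9272276, LOC4346431 and 2 members without a gene put the same 56 lines below the gap. LOC4346431 read 2.43, 2.66 and 2.75 in Minghui 63 and 8.01, 8.05 and 8.25 in Zhenshan 97. Its neighbour LOC9272276, with 80 annotated genes between, read 3.83, 3.90 and 3.88 in Minghui 63 and 8.74, 7.34 and 7.73 in Zhenshan 97. The lines of each thus divided in the same place while the levels differed.

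The 33 members without 2 classes were of several kinds. In 10 of them the gap was 0.5 to 1, repeatability 0.42 to 0.90 and both arrays on the same side in 102 to 109 lines after centring of the replicate numbers. On the deposited values the same count was 86 to 108, with 86 for LOC4347495. The nearest miss, without a gene, had a gap of 0.995. LOC4350822 on chromosome 11 read 2.84, 2.91 and 2.61 in Minghui 63 and 7.62, 7.75 and 8.74 in Zhenshan 97, and 84 of its lines lay below a gap of 0.95.

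In 9 members the Zhenshan 97 arrays disagreed with each other by an SD over 1.5, and none of these had 2 classes or was called without the replicate block. In 8 of the 9 it was replicate 3 that was low: it read 3.91 to 5.06, against 9.69 to 11.24 in replicate 1 and 7.21 to 9.79 in replicate 2. Their Minghui 63 arrays read 3.08 to 4.61. The medians of the 110 lines were 3.18 to 4.61, so most lines resembled Minghui 63 and the low Zhenshan 97 array, and the highest line mean of any of the 8 was 7.08. Repeatability was -0.13 to 0.09. The line means hide disagreement between the arrays of a line: the SD within lines was 0.77 to 1.46. After centring, both arrays lay on the same side of the widest gap in 74 to 91 of the 110 lines.

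Both rab25 and PDHE1-A belong to these 8. The rab25 probe set (LOC4326935, chromosome 1) read 4.35, 4.15 and 4.19 in Minghui 63 and 10.17, 7.82 and 3.91 in Zhenshan 97. Its lines ran from 3.30 to 6.66 with a median of 4.08. PDHE1-A (LOC4340640, chromosome 6) read 4.08, 4.57 and 4.51 in Minghui 63 and 9.69, 8.74 and 4.36 in Zhenshan 97, with line means from 3.93 to 7.08. Neither was called between lines (adjusted p = 1 for both, limma). In these genes the Zhenshan 97 level of the rule thus rests on 2 of 3 arrays. In the ninth, LOC4331496 on chromosome 3, replicate 1 was the low one, at 4.23, against 10.38 and 10.84. It was called with the replicate block (adjusted p = 2.68e-07, limma).

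In 11 members of the whole set no line was as low as the highest Minghui 63 array. The lowest line lay above that array by 0.1 to 1.895 log2 units. The margin of 0.1 was that of LOC4335622, which had 2 classes with 78 lines below its gap. Margins were also narrow in members without a gene, at 0.235 and 0.28. LOC4350295 on chromosome 11 had 3 of the 11 members. The brightest read 3.69, 4.24 and 3.38 in Minghui 63 and 9.82, 9.64 and 9.84 in Zhenshan 97, and its line means ran from 6.14 to 11.15 with a median of 8.75. The dimmest of the 3 read 2.39, 2.78 and 3.69 in Minghui 63 and 8.12, 7.82 and 7.77 in Zhenshan 97, with lines from 4.53 to 8.98. A member with no gene in the annotation followed these 3 over the lines at r = 0.97. It read 3.33, 3.25 and 3.65 in Minghui 63 and 8.58, 8.51 and 8.49 in Zhenshan 97. So on all 4 each line mean lay above the highest Minghui 63 array, although the lowest line of the dimmest was under the limit of 4.6.

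Between lines these probe sets depended on how the replicate number was treated. Repeatability of the 3 probe sets of LOC4350295 was 0.23 to 0.27, with adjusted p = 0.033 for the dimmest and 0.092 and 0.084 for the others (limma). Replicate 2 arrays minus replicate 1 arrays averaged -1.22 to -1.03 log2 units at these probe sets. With the replicate number as a block, repeatability was 0.53 to 0.57 and all 3 were called (highest adjusted p = 7.22e-09, limma). The part of that shift in the parental difference was not tested. A further probe set of the gene averaged 1.89 in Minghui 63 and 1.87 in Zhenshan 97.

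The peroxidase gene (LOC4344277, chromosome 7) was also low only in Minghui 63 itself. It read 3.45, 3.62 and 4.59 in Minghui 63 and 7.33, 8.31 and 9.71 in Zhenshan 97. Its lines ran from 6.25 to 8.60 with a median of 7.40 and were not called (adjusted p = 1, limma), but were with the replicate number as a block (adjusted p = 0.0031, limma). Its repeatability without the block, -0.15, was the lowest in the set. LOC4341417 on chromosome 6 showed the same order, at 4.28, 3.85 and 4.19 in Minghui 63 and 6.42, 6.67 and 8.73 in Zhenshan 97, with lines from 5.19 to 7.68 (adjusted p = 1, limma).

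LOC4352286 on chromosome 12 had no line below 6.17 either, against 3.31, 4.06 and 5.01 in Minghui 63 and 8.48, 8.86 and 7.41 in Zhenshan 97. It was called between lines without the block (adjusted p = 9.49e-09, limma), within a range of 6.17 to 9.67. In the opposite sense, 4 members had no line as high as the lowest Zhenshan 97 array. One of them, LOC4343183 on chromosome 7, had 2 classes, at 4.25, 4.18 and 4.11 in Minghui 63 and 11.04, 10.74 and 10.64 in Zhenshan 97, with its highest line at 10.58. Another, without a gene, also had 2 classes, with a gap of 1.43. Its highest line was at 8.33, against 8.91 in its lowest Zhenshan 97 array.

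**Figure D5:**
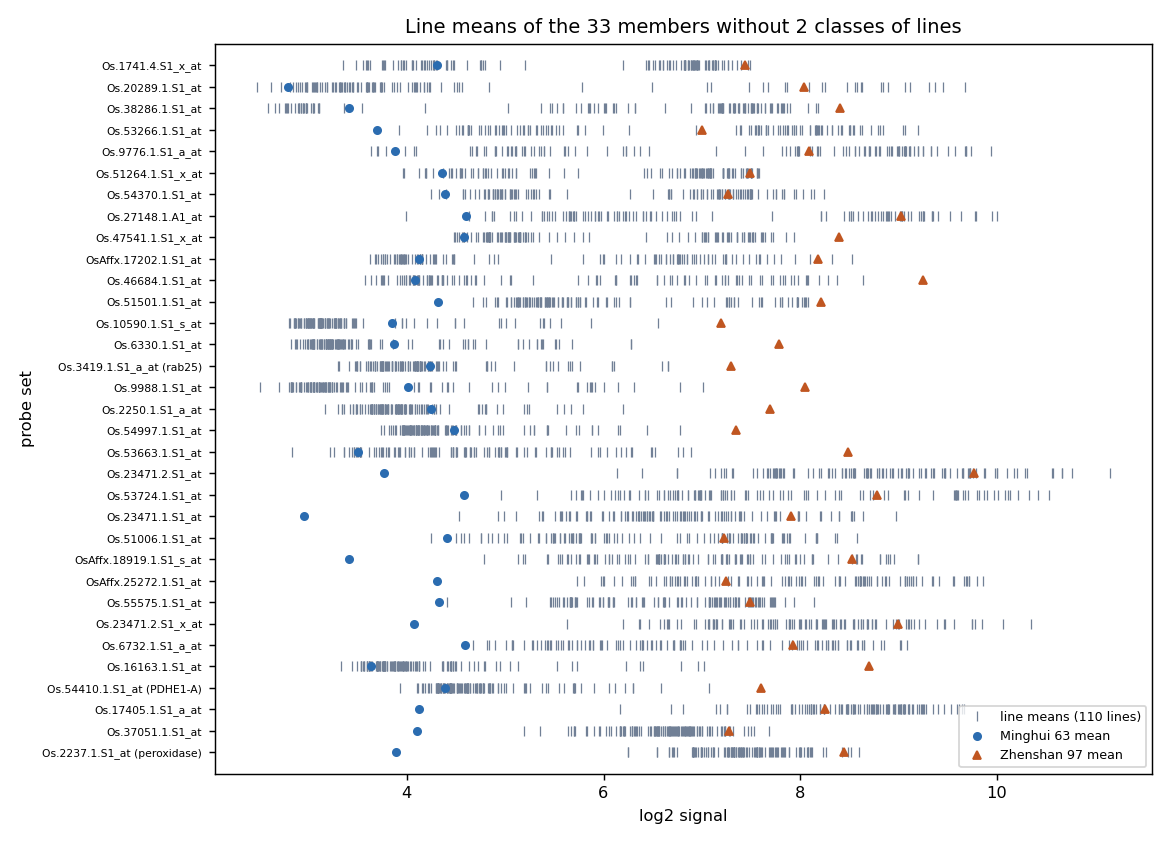
Line means (vertical ticks, 110 per row) of the 33 members without 2 classes on the log2 signal axis, with the Minghui 63 mean as a circle and the Zhenshan 97 mean as a triangle, ordered from the widest gap (top) to the narrowest (bottom). Rows such as rab25 and PDHE1-A have their ticks near the circle, rows such as peroxidase have them near the triangle, and the upper rows have them near both.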

How the data were processed

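Labelled RNA from shoots of 110 lines and 2 parents was hybridised to 226 arrays. The deposited log2 values, 1 per probe set and array, were made by the authors with RMA and the affy package, per the submitters' processing notes; no version or setting is recorded there. They were used as given. The members and lists were chosen with earlier results of these data known.

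Control probe sets (123 AFFX and 64 RPTR) were left out of 57381. Genes came from the platform annotation (22436 probe sets with 1 gene), and symbols, synonyms, chromosomes and gene order from the RefSeq gene table of the assembly ASM3414082v1. No product descriptions were in these tables, so planned product groups were not formed, and no sequence was used. Lines were compared with limma 3.58.1 in R 4.3.3 (lmFit and eBayes, 1 coefficient per line, 220 line arrays, no filter, Benjamini-Hochberg over 57194 probe sets, adjusted p under 0.05). Gaps and correlations were computed in Python 3.11.15 with numpy 2.4.6 and pandas 2.3.3, and exact intervals with scipy 1.17.1; correlations and counts of lines on the same side used values after each replicate number was centred, unless stated. Both procedures were also run on simulated data. For the F test the simulated noise was independent between arrays. It held no deviation shared by a replicate number, so it cannot show how the test behaves with one. Arrays of lines with the same replicate number deviated together in nearly all line pairs (r over 0.1 in 5972 of 5995, median 0.66), while the parents' did not (r -0.47 to -0.18).

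Named probe sets were those with a usable gene name, the 10 widest gaps, the 5 lowest repeatabilities, genes with several members and the 3 nearest to each limit on either side; others were singled out after their values were seen. Alternatives changed the limits, the arrays, the filter, the gap rule, the centring and the correlation count.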

Additional observations from a re-analysis of the deposited data

How the results depend on the processing

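With other limits, centred arrays or 1 parental array left out, the set held 64 to 124 members. Leaving out 1 parental array gave 76 to 111 members, of which 75 to 85 were shared with the 87; the 111 came without Zhenshan 97 replicate 3, and 58 of them had 2 classes. The F test called 78 members with the replicate block (10.7% of all probe sets), 5 gained and 0 lost. Arrays with the same replicate number deviated together in most line pairs (median r 0.66), but 23 of 5995 pairs had r of at most 0.1 and no label ties the number to a batch, so the block was kept as an alternative. With a filter at a mean of at least 5 over all arrays, 66 of 71 tested members were called, and with a mean of at least 7, 10 of 13, because fewer members were tested. The number with 2 classes was 64 at a gap of 0.5, 42 at a gap of 1.5, 53 by the middle between the parents and 43 at a gap of 3 SD within lines. It was 38 without replicate 1 and 53 without replicate 2, and 36 had 2 classes in each replicate number alone. Chosen after the values were seen, 99 lines gave 55, and a Zhenshan 97 SD of at most 1.5 gave 54. The count of 25 members led to their own chromosome was 25 under each alternative run. Signals near background limit what differences below the Minghui 63 level could show.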
